A study of Mus musculus with 18 samples.

Results

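The 6 genes described here were examined as possible binding targets of ATF4, the transcription factor that the integrated stress response brings into action. Of these, 5 encode secreted proteins (Fgf21, Gdf15, Stc1, Stc2 and Vegfa) and 1 encodes a cell-surface receptor (Vldlr). They were taken as a list by name, 6 of the 21883 protein-coding genes in the annotation, and peaks were collected in each gene body and 20 kb on either side (here called the window of the gene).

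The chromatin came from primary immature neurons of E14 mouse embryos, grown for 2 days in culture. Cultures were left untreated (control) or received 2-deoxyglucose (2-DG) at 10 mM over 6 h. This sugar resembles glucose, stalls glycolysis and impairs the glycosylation of proteins in the endoplasmic reticulum. The labels give no strain or genotype, and peak lists hold no expression values, so the cell type was not checked here. The comparison asks where ATF4 sits after 2-DG and not without it.

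The peak lists compared were 4 control and 4 2-DG lists, with 3461 to 8202 peaks per control list and 5856 to 15240 per 2-DG list. The longest was 2-DG replicate 1. For control samples the labels state no antibody and for 2-DG samples one against ATF4, whereas the series' design text has ATF4 immunoprecipitated from both. A treatment effect and a difference in antibody therefore cannot be told apart in anything that follows. A further 2 lists carry titles and descriptions that name opposite treatments, and they entered no group. No read counts come with the lists, so depth is unknown and a site without a peak may still be bound. A peak is a sum over all cells of a culture, so more cells with ATF4 at a site and more ATF4 per cell cannot be told apart.

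ATF4 is made in larger amounts when translation initiation is slowed by phosphorylation of eIF2, and it pairs with C/EBP proteins on composite elements whose core is often written TGATGNAA. FGF21 is a hormone that signals through FGF receptors with the co-receptor beta-klotho, and GDF15 is a distant member of the TGF-beta family that acts through GFRAL and RET in the hindbrain. Both are widely used as blood markers of cell stress. The stanniocalcins STC1 and STC2 are secreted glycoproteins that inhibit the pappalysin proteases, VEGFA drives the growth of blood vessels, and VLDLR takes up lipoproteins and, in neurons, receives reelin.

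Sequence was at hand for promoters only, as windows of 300 bases from RefSeq (GRCm38.p6, the assembly named mm10) that run from 250 bases before a transcript start to 50 after it. The table gave 8 windows for 5 of the 6 genes, and none for Stc1. Both orientations were searched for TGATGNAA and for TGACGTCA, the palindromic cAMP response element. TGATGNAA was found once in Fgf21 and once in Vldlr. It was in none of the windows of Gdf15, Stc2 and Vegfa, and TGACGTCA was in none of the 8. The 2 sites are printed because the peaks described next lie on or near them. They are written 5′ to 3′ along the gene, with the matched letters in capitals.

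Fgf21, chr7:45615611-45615640, minus strand: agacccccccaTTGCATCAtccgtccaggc
Vldlr, chr19:27216809-27216838, plus strand: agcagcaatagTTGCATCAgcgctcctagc

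Along both genes the letters read TTGCATCA, which is the element on the opposite strand. On either strand TTGCATCA occurred in 294 of all 32851 promoter windows (0.895%), and TGATGNAA in 1304 (3.97%). The Fgf21 letters lay 132 bp before the start of that gene. Those of Vldlr lay 193 bp before the second of 2 listed starts, which puts them after the first. The whole stretch of 250 bases before the Fgf21 start, chr7:45615491-45615740 on the minus strand, is given since a small peak covered its site.

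Fgf21: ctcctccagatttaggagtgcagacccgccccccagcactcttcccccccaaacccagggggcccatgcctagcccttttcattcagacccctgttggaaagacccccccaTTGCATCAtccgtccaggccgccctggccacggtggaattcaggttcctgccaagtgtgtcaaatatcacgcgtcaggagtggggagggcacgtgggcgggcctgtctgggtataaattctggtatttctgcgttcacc

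After 2-DG, peaks appeared at all 6 genes in at least 2 of 4 lists, and control lists had hardly any. The 2-DG lists held a window peak for 6, 6, 5 and 4 of the genes, and the control lists for 1, 1, 0 and 0. The means were 5.25 ± 0.957 and 0.5 ± 0.577 genes (SD, n = 4 lists each), and the groups did not overlap. Over all protein-coding genes, 20.9% ± 7.95 had a window peak in a 2-DG list and 13.8% ± 5.26 in a control list (SD, n = 4). Gdf15, Stc2 and Vldlr were marked in every 2-DG list and in 0 of 4 control lists, a pattern that 330 of the 21883 genes shared (1.51%). Among the 13356 genes no shorter than Fgf21 (1601 bp) and no longer than Vldlr (37752 bp) the share was 1.38%. Fgf21 stood at 4 of 4 against 1 of 4, Stc1 at 3 against 0, and Vegfa at 2 against 1.

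Presence in 4 lists against 4 cannot give a Fisher's exact p under 0.02857, and no gene passed after adjustment. The lowest Benjamini-Hochberg adjusted p over the 12023 genes with any peak was 1, while 334 had an unadjusted exact p under 0.05. With peaks limited to 2 kb around the gene ends, 4 of the 6 genes (Fgf21, Gdf15, Stc2 and Vldlr) were in every 2-DG list and no control list, against 119 of all genes (0.544%). No member had a control peak in that narrower window. Over all genes, 1.61% ± 0.332 had such a peak in a control list and 3.40% ± 1.40 in a 2-DG list (SD, n = 4). The absence of control peaks is therefore common to most genes.

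**Figure D1:**
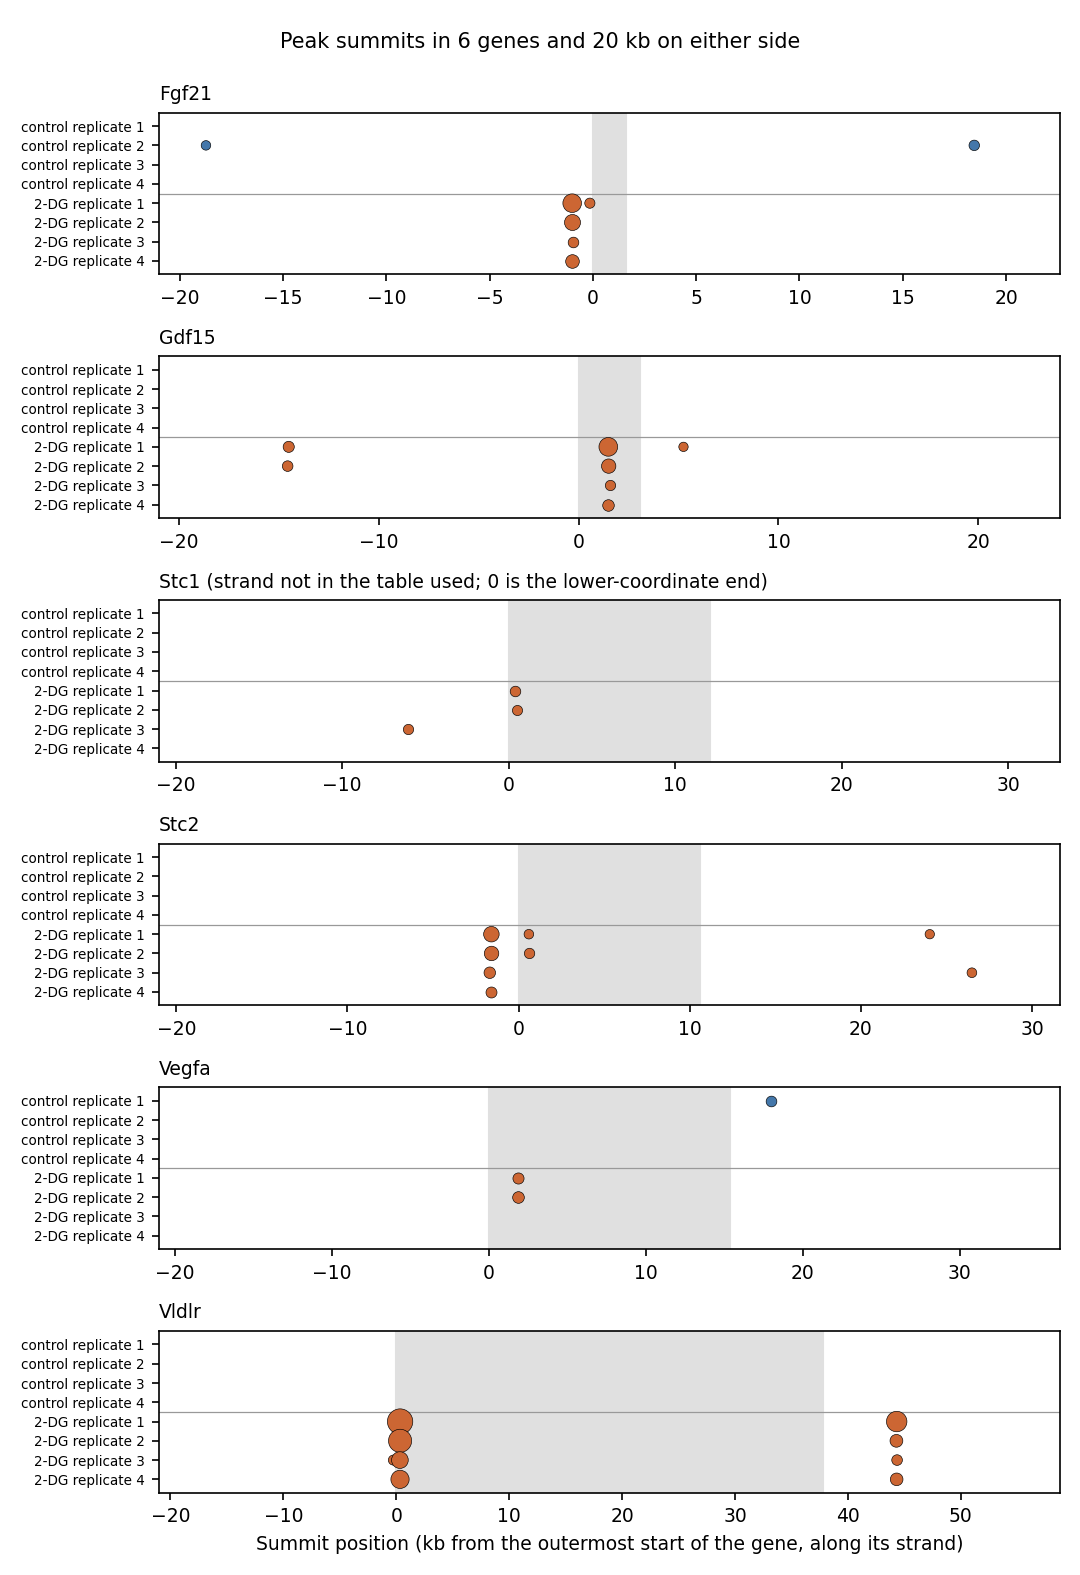
Summit of every peak in the 6 windows, in kb from the outermost start of the gene along its strand (Stc1 from its lower-coordinate end), 1 row per list, with dot area rising with the authors' fold and the gene body in grey. The 4 control rows hold 3 dots in all, 2 at Fgf21 and 1 at Vegfa, each more than 2 kb outside the gene, while 2-DG dots stack near 1 position at Fgf21, Gdf15 and Stc2 and near 2 positions at Vldlr.

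The peaks of all 8 lists merged into 17 regions in the 6 windows. Of these, 5 were called in every 2-DG list and no control list, as were 616 of 35717 regions in the genome (1.72%). A further 8 were in a single list, and the other 4 were in 2 2-DG lists each. Of all 17, 3 came from control lists, and none of the 3 met a 2-DG peak. Positions are mm10, and the fold is the authors' enrichment of a peak over its local background. Folds of different lists are set side by side and were not tested against each other.

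Vldlr, the receptor gene, carried the strongest peaks of the 6. Its first region, at chromosome 19, 27216172 to 27217249, spans both listed starts. The summits in 2-DG replicates 1 to 4 lay at 27216817, 27216816, 27216800 and 27216810, a spread of 17 bp in peaks 525 to 1039 bp wide. In the same order they were 3, 4, 20 and 10 bp from the nearest matched letter, on the side of lower coordinates. So in every 2-DG list the peak held the TTGCATCA printed for Vldlr, close to its summit.

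The fold of this region was 46.1, 37.7, 18.1 and 22.2 in 2-DG replicates 1 to 4, and no control list had it. These folds ranked 86 of 15240, 87 of 7369, 126 of 6371 and 124 of 5856, inside the top 0.564% to 2.12% of each list. Replicates 1 and 2 were high and replicates 3 and 4 low, yet the rank stayed near the top in all. 2-DG replicate 3 also had a weak peak of its own 260 bp before the gene, with a fold of 4.40.

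A second Vldlr region lay 6563 bp beyond the far end of the gene, at 27260549 to 27260999, within the long non-coding gene Gm35438 that also encloses Vldlr. It was called in the same 4 lists, with summits 59 bp apart at most and folds of 28.8, 9.25, 5.38 and 8.96. Replicate 1 stood well above the rest, and replicate 3, at rank 1806 of its list, was lowest. The site is 3503 bp from a listed start of Gm35438 and 43774 bp from the nearer start of Vldlr.

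**Figure D2:**
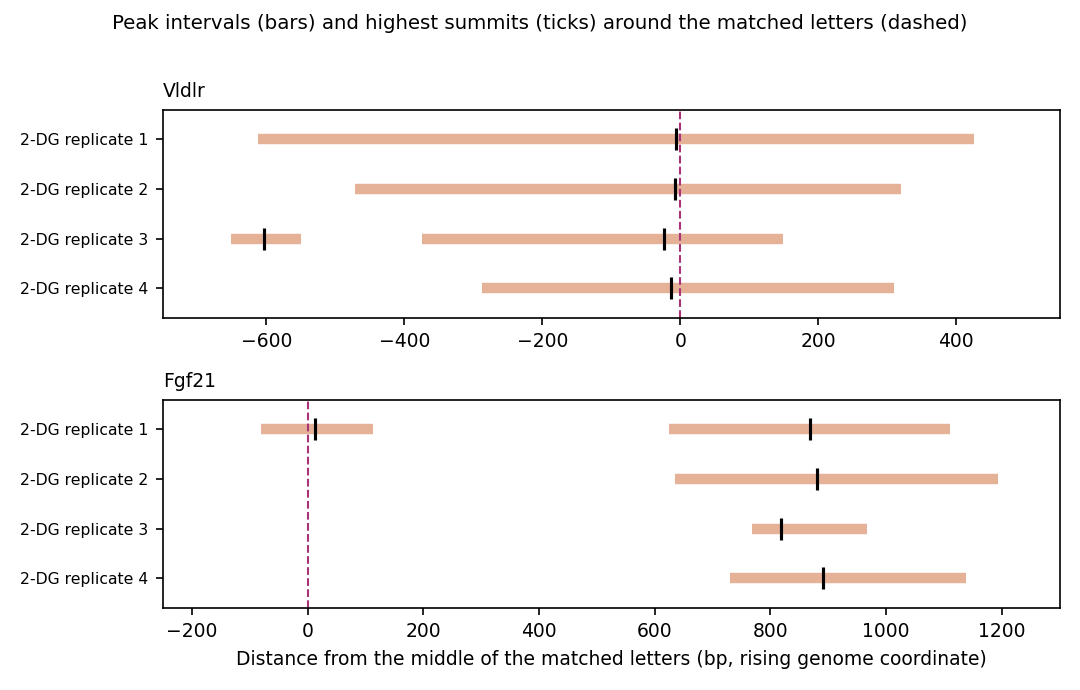
Peak intervals (bars) and highest summits (ticks) of the 2-DG lists against the middle of the matched letters (dashed line), in bp along the genome, for Vldlr (top) and Fgf21 (bottom). The summit of the strongest Vldlr peak of each list sits within 23.5 bp of the line, and the separate weak peak of 2-DG replicate 3 lies at -603.5 bp. At Fgf21 the site is covered in 2-DG replicate 1 alone, and the summits of the shared region lie 814 to 888 bp from the letters.

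Fgf21 had its recurrent region upstream of the printed site. It lay at chromosome 7, 45616251 to 45616819, with summits 1004, 1016, 953 and 1027 bp before the gene start in 2-DG replicates 1 to 4. Folds were 23.2, 16.4, 5.38 and 10.9, at ranks 305, 347, 1806 and 414. Replicate 3 was the low one, with a fold that 871 of its 6371 peaks shared. The region is nearly midway between 2 genes that point away from each other, since the summit of replicate 1 is also 1112 bp before the start of Fut1, a fucosyltransferase gene. Which of the 2 genes it belongs to cannot be read from the lists.

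On the Fgf21 promoter itself, 2-DG replicate 1 had a small peak at 45615545 to 45615738, with a fold of 4.64 at rank 6084. Its summit was 148 bp before the start and 9 bp from the matched letters printed for Fgf21. The other 7 lists had no peak there. Both control peaks in the Fgf21 window came from control replicate 2, one 16862 bp past the lower-coordinate end, in Gm31479, with a fold of 5.13, and one 18733 bp from the start, in Rasip1, with a fold of 3.66. Neither met a 2-DG peak.

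Gdf15, the other gene of a circulating stress hormone, was marked inside its body. The region at chromosome 8, 70630724 to 70631233, had summits 1482, 1501, 1547 and 1445 bp into the gene from its outermost start, and 1107 bp past the second listed start in replicate 1. Folds were 23.5, 12.4, 4.89 and 6.97 in 2-DG replicates 1 to 4, at ranks 298, 544, 2677 and 1001. Replicate 1 was highest and replicate 3 lowest, where 1085 peaks had the same fold. Exons and introns were not analysed here. A weaker region in 2-DG replicates 1 and 2 (folds 6.19 and 5.34) lay 14514 bp from Gdf15 but 548 bp inside an end of the peptidase gene Pgpep1. Replicate 1 alone had a peak 2168 bp beyond the far end of the gene, with a fold of 3.40.

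Stc2, the stanniocalcin gene with recurrent peaks, had them before its start. The region at chromosome 11, 31371424 to 31372016, gave summits 1587, 1578, 1681 and 1588 bp before the start, so that replicates 1, 2 and 4 agreed to within 10 bp and replicate 3 lay apart. Folds were 15.2, 12.8, 6.85 and 5.97 in 2-DG replicates 1 to 4, at ranks 618, 509, 795 and 1425. No other annotated gene end was closer than 38522 bp. Replicates 1 and 2 had a second, weaker region inside the gene, 603 and 643 bp past the start, with folds of 3.71 and 4.98. Single weak peaks lay 13407 bp (replicate 1) and 15869 bp (replicate 3) beyond the other end.

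Stc1, its paralogue, had less. A region at chromosome 14, 69029644 to 69029871, 407 and 489 bp inside the lower-coordinate end, was called in 2-DG replicates 1 and 2 with folds of 5.26 and 4.62. Those ranked 4292 of 15240 and 3369 of 7369, or the top 28.2% and 45.7%. The stretch is shared with the non-coding gene Gm41192. 2-DG replicate 3 had a peak elsewhere, 6041 bp outside that end, with a fold of 4.89, and 2-DG replicate 4 had none.

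Vegfa, which codes for the angiogenic factor, was also called in 2-DG replicates 1 and 2 only. The region at chromosome 17, 46030199 to 46030799, had summits 1884 and 1849 bp into the gene, folds of 6.19 and 7.11, and ranks 2929 and 1410. In both lists that was inside the top 19.2%. The remaining 2-DG lists had no Vegfa peak, and control replicate 1 had one 2627 bp beyond the opposite end, with a fold of 5.45. The 2-DG replicates thus differed at Vegfa and Stc1. The lists that held both regions were the 2 longest 2-DG lists and those with the highest folds at Vldlr. With every list shortened to its 3461 top peaks, the excess of 2-DG over control lists fell from 75 to 25 percentage points at Stc1. At Vegfa it stayed at 25. Beyond this the part of list length was not tested.

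**Figure D3:**
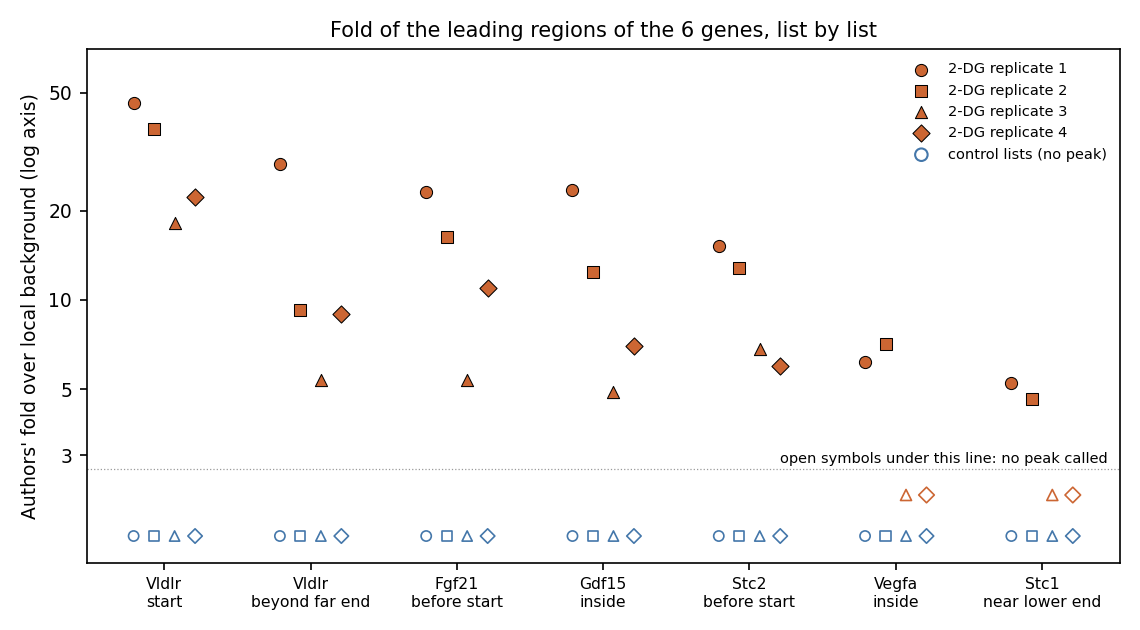
Authors' fold over local background (log axis) of the regions called in all 4 2-DG lists and of the leading regions of Vegfa and Stc1, with 1 symbol shape per replicate. Open symbols mean that no peak was called, which holds for every control list, and the Vldlr start region is highest in each replicate.

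Within each 2-DG list the order of the genes could be read without comparing folds between lists. The start region of Vldlr came first of all member peaks in all 4. The second Vldlr region took place 2 in replicate 1, 5 in replicate 2 and 3 in replicate 4, and tied with Fgf21 in replicate 3. Among the other genes the order changed from list to list. Gdf15 was ahead of Fgf21 and Stc2 in replicate 1, Fgf21 was ahead in replicates 2 and 4, and Stc2 in replicate 3. Fgf21, Gdf15 and Stc2 were therefore not separable in rank. Stc1 and Vegfa, where called, came after them, except that the separate Stc1 peak of replicate 3 tied with Gdf15 at 4.89.

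**Figure D4:**
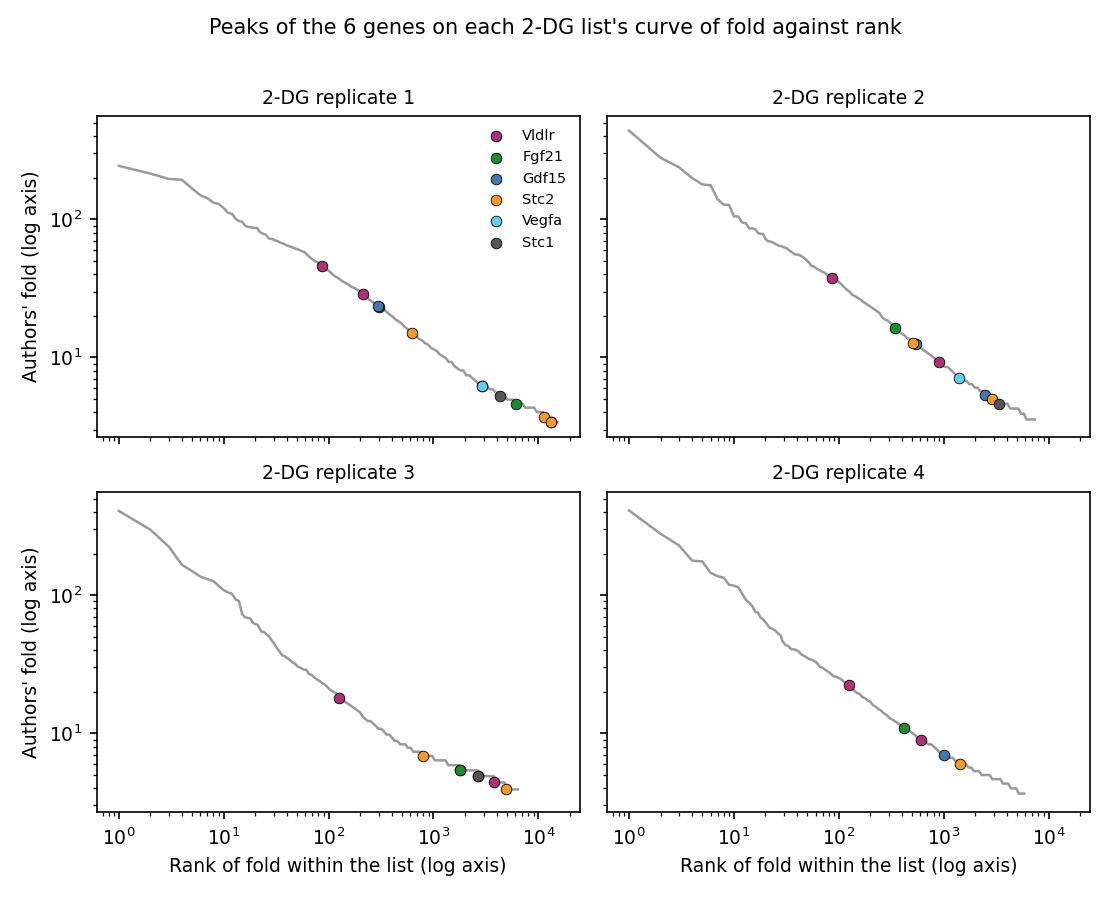
Authors' fold against its rank within each 2-DG list (both axes log), with the whole list as a grey curve and the peaks of the 6 genes as coloured dots. The Vldlr start region leads in each panel, at ranks 86, 87, 126 and 124, and Fgf21, Gdf15 and Stc2 follow in an order that changes between panels. The second Vldlr region comes before these genes in 2-DG replicate 1 and after them in 2-DG replicate 2.

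A set of 7 established ATF4 targets (Trib3, Chac1, Ddit4, Sesn2, Asns, Atf3 and Ddit3) gives the scale. All 7 had a window peak in every 2-DG list. The highest window peak of each, as a percentile of fold within its list averaged over the 4 2-DG lists, ran from 93.5 for Atf3 to 99.8 for Chac1. On that measure Vldlr reached 98.5, inside the range of the 7 targets. Stc2 (86.2), Fgf21 (85.9) and Gdf15 (78.0) were below it, and Vegfa (39.3) and Stc1 (37.6), counted as 0 where no peak was called, further below. The highest window peak need not be at the target itself. That of Ddit3 lay 15380 bp outside the gene and 115 bp from an end of Mars1. For Sesn2 it lay 3639 bp outside the gene and 1913 bp from an end of n-TAagc8. At its start Trib3, a pseudokinase gene, had folds of 58.8, 37.7, 21.5 and 24.9 in 2-DG replicates 1 to 4. The Vldlr start region had 46.1, 37.7, 18.1 and 22.2, equal in replicate 2 and lower in the others. Each of the 7 targets had a control peak somewhere in its window, so that 0 of 7 met the rule of 4 against 0 there, while 4 of 7 did within 2 kb of the gene ends.

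The letters of the Vldlr site were also looked for at promoters marked like it. Of all promoter windows, 38 (of 35 genes) held a summit of a region called in every 2-DG and no control list. TGATGNAA was in 20 of these (52.6%) and TTGCATCA in 10 (26.3%), beside 3.97% and 0.895% of all windows. TGACGTCA was in 1 of the 38 (2.63%) and in 1.79% of all. The second Vldlr window is one of the 38 and counts among both the 20 and the 10. These shares are a description. Among the 7 established targets, 4 had TGATGNAA in the window.

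Receptors and relatives of the 6 proteins were taken as 6 lists, and all their genes matched the annotation. None met the rule of 4 against 0 in the window, which is near the share over all genes (1.51%) for lists of 6 to 13 genes and sets them apart from no other genes. Fgfr1, an FGF21 receptor gene, showed the reverse, with a window peak in every control list but no 2-DG list, a pattern of 4 genes in the annotation. In control replicates 1 and 2 the Fgfr1 summits were 375 and 374 bp inside a gene end, with folds of 4.00 and 4.03. In replicate 4 it was 21 bp inside that end, with 9.19, and in replicate 3 the peaks were over 16 kb outside. Fgfr4 had a peak 4834 bp from its start in 3 2-DG lists and 1 control list, and the co-receptor gene Klb had a window peak in 1 2-DG list.

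Of 7 genes of the GDF15 axis and activins, 5 had a peak in some 2-DG list and 1 in some control list, but none in 3 lists of a treatment. Over all 21883 genes, 9535 had a window peak in some 2-DG list and 7664 in some control list. The GDF15 receptor gene Gfral stood at 2 against 0. Among 6 genes around the stanniocalcins, Pappa encodes a pappalysin that STC2 inhibits. It had a region 6803 bp inside an end in 3 of 4 2-DG lists (folds 10.8, 7.47 and 6.30, replicates 1, 2 and 4). No control list had it, and 2 had peaks elsewhere in its 233336 bp. Pappa2 stood at 3 against 2, in scattered places.

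In the VEGF group of 9, Nrp1, a VEGF co-receptor gene, had a region 72698 bp inside the gene in all 4 2-DG lists, with folds of 21.03, 15.29, 11.25 and 9.29. No control list had that region, and 1 had a peak elsewhere in the window. Flt1, a VEGF receptor gene, had a region in all 8 lists, with folds of 11.3 to 24.4 in control and 8.89 to 27.4 after 2-DG. Kdr stood at 3 against 2 with peaks at scattered sites.

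Of 11 genes of the reelin and LDL receptor family, 8 had a window peak in at least 3 of 4 2-DG lists, and 4 in at least 3 of 4 control lists, as did 2621 and 1053 of the 21883 genes. Many are long, up to 2058309 bp for Lrp1b, and the part of gene length in these counts was not tested. Lrp1, at 4 against 1, owed this to a region 16242 bp outside the gene and 529 bp from an end of Shmt2, a serine and glycine enzyme gene. Sorl1 had a region 14043 bp outside the gene at 4 against 1 (folds 20.7, 17.4, 5.87 and 6.97). Lrp1b stood at 4 against 3 in its window, with a region deep inside the gene at 4 against 0 (folds 16.1, 9.96, 5.38 and 7.30). Dab1, the adaptor that VLDLR uses on reelin binding, also stood at 4 against 3, with a region at 3 against 0 (folds 14.2, 8.54 and 5.87), 177415 bp from a gene end. Reln, the gene of the ligand, stood at 3 against 3, with a region in 3 lists of each treatment (folds 5.57 to 6.40 after 2-DG and 6.72 to 8.89 in control). Lrp5 stood at 3 against 4, with regions that went opposite ways. One was in 1 2-DG list and 4 control lists (folds 4.95 and 4.40 to 6.55). Another, 13043 bp outside the gene, was in 3 2-DG lists and no control list (folds 6.80, 4.27 and 4.645). Lrp8, the other reelin receptor gene, stood at 2 against 1, and none of the 11 met the rule that Vldlr met.

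Among 13 other secreted stress factors, Cdnf, a neurotrophic factor of the endoplasmic reticulum, had a promoter peak in 3 of 4 2-DG lists and no control list. Its summits were 64, 78 and 59 bp outside the gene, with folds of 5.57, 8.89 and 5.97 in replicates 1, 2 and 4, and its promoter window held TGATGNAA. Control replicate 4 had a Cdnf peak 12793 bp away, with a fold of 3.54. The related gene Manf had no peak in any of the 8 lists, nor did Adm and Ccl2. Of all 21883 genes, 12023 had a window peak in at least 1 of the 8 lists, so such absences are common.

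Genes with the profile most like each member were found from the percentile of the highest window peak in each of the 8 lists, by Euclidean distance. Nearest to Vldlr were Smarca2, Rbck1 and Mmp28 (distances 0.657 to 0.707 percentile points), and nearest to Gdf15 were Me3, Dync1li2 and Atf6 (2.81 to 4.32, where Atf6 is one of 3 genes at the same distance). Stc2 had Kmt2e and Srpk2 at 3.88 and Zbtb3, one of 5 genes at the same distance, at 4.67. For Fgf21, whose profile includes a control peak, the nearest was Dpp4 at 18.8, followed by Kdm4a and Msra. Nfe2l3, Lep and Pkn2 came closest to Vegfa (13.1 to 25.8). B3galt1, Ctnna2 and Nus1 had the same percentiles as Stc1 in all 8 lists, since weak peaks take few distinct folds.

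The lists with opposite labels were looked at last. One with 2-DG in its title and control in its description (7847 peaks) had peaks in the regions of Vldlr (folds 12.5 and 7.29), Stc2 (6.25), Gdf15 (5.90) and Fgf21 (5.21). Its Vldlr summit lay within the matched letters. The other, with these reversed (4335 peaks), had none in the 6 windows. Added by title, they left the difference between the treatments at 4.6 genes per list (4.75 without them) and the number of genes found in every 2-DG but no control list at 3. Over all genes that number went from 330 to 247. Added by description, the difference was 3 and the number fell to 0, while over all genes it fell to 4, so that nearly every gene lost the pattern and the 0 says nothing particular about the 6.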

How the data were processed

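Reads had been aligned to mm10 and peaks called before deposit. BWA, Picard, MACS2 and DiffBind are the tools listed in the submitters' processing notes, without versions, and for inputs and filters the settings are not given in the sources used here. Each deposited list covers 1 sample. The authors' peak caller computed the fold, a ratio of a peak's signal to its local background, and this fold ranked peaks within a list. The -log10 p and -log10 q of each peak were computed by the authors' peak caller too, and -log10 q served as a filter. The score deposited by the authors restates -log10 q as a whole number and was not used. Of the 18 samples, the inputs were not used.

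Repeated lines of an interval, 431 to 1807 per list, were reduced to its highest summit. A peak counted for a gene when that summit lay in the window, and regions merged peaks that overlap by at least 1 bp. Genes came from RefSeq (GRCm38.p6), and strand and starts from its promoter table. Groups rest on titles and descriptions that name 1 treatment. Nothing ties lists to separate cultures, so spread and p-values cover differences between these samples, which may be technical, and the design text states 3 replicates where each treatment has 4 lists here. Fisher's exact test was two-sided, with Benjamini-Hochberg adjustment. Analyses ran in Python 3.11.15 with scipy 1.17.1. The code was run on simulated lists of 4 against 4 over 21883 genes with 200 planted genes. Of these, 188 were free of simulated control peaks, and all 188 were recovered. Planted genes with a control peak were left out of this count, so it checks only the counting of lists. It cannot show how well bound genes are found in the real lists.

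The 6 genes, the related lists and the tests were chosen with earlier results of these data known. Named genes were the 6, up to 4 per related list (those marked in 3 or 4 lists of 1 treatment), the 3 nearest profiles of each member, and neighbours closer to a peak. The planned motif search around summits needs a genome and was not run. Klb, Gfral, Lrp5, Lrp8, Reln, Manf, Adm and Ccl2 were named after their values were seen.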

Additional observations from a re-analysis of the deposited data

Results flagged for a closer look

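In 29 sets of 4 lists (folds, percentiles, -log10 q, widths and summits of the 5 recurrent regions, and genes per list), 4 held a list far from the other 3. Chance gives about 1 in 20, and measures of the same peak are not independent. At Fgf21, 2-DG replicate 3 had a percentile of fold of 58, far under the other 2-DG lists. At Stc2, the summit of 2-DG replicate 3, at 31371742, lay away from the other summits. At the Vldlr region beyond the far end of the gene, 2-DG replicate 1 had a fold of 28.8 and a -log10 q of 108, far over the other lists.

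One list outside the groups, with 2-DG in its title but control in its description, had a window peak for 4 of the 6 genes, more than any control list. No source used here says which of its labels is right.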

How the results depend on the processing

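Windows of 5 kb and 50 kb, gene ends of 2 kb, placement by overlap, thresholds on -log10 q (2 and 5) and on fold (5), lists shortened to their 3461 top peaks, leaving out each list, and adding the conflicting lists were tried. The difference in genes per list stayed within 1 SD of 4.75, and the number of genes in every 2-DG but no control list between 2 (-log10 q of 5, fold of 5, shortened lists) and 4 (5 kb, gene ends, without control replicate 2, without 2-DG replicate 4), except with the conflicting lists added by description, where they were 3 and 0. Over all genes the second number was 330, ran from 119 to 563 in the other alternatives and fell to 4 by description. Leaving out a list gave differences of 4.5 to 5.17. Each of the 6 genes kept a higher share of 2-DG than control lists in all 108 alternatives for single genes, with Vegfa as low as 8.33 percentage points without 2-DG replicate 1 or 2. Most of these alternatives reuse the same lists. For Gdf15, Stc1, Stc2 and Vldlr, which had no control peak, stricter thresholds, shortened lists and left-out lists could not reverse the direction. Of 42 alternatives for the median percentile of fold, 5 moved by more than the spread between lists, 4 of them with equal list lengths. There Stc1 fell from 42.7 to 0, a value from 1 2-DG list. Its excess of 2-DG over control lists fell from 75 to 25 percentage points, as shortening cuts weak peaks away. Vegfa fell from 78.7 to 30.01 in percentile. A peak that stays in a shortened list has fewer weak peaks left to rank above. No depth is known, so no limit of detection can be given. No replicate numbers in the labels tie control to 2-DG lists, so no block was fitted. Replicates are numbered here in the order of their title numbers, in which control and 2-DG lists alternate, so pairs are possible but not stated. Control replicate 3 and 2-DG replicate 3 had the fewest repeated lines (460 and 431) and the smallest median peak widths (134 and 135 bp) of the 8 lists.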
